A study of Canis lupus familiaris with 77 samples.

Results

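Liver was compared with all other tissues of an untreated male beagle dog miRNA atlas. The liver libraries were found by their tissue label and are 5 of the 76 libraries used. The other 71 libraries cover 15 tissues, with 5 libraries each of heart, testis, lung, skeletal muscle, kidney, thymus, brain, pancreas, duodenum, jejunum, ileum, bone marrow and plasma, 4 of colon and 2 of sciatic nerve. No group received a treatment, so every difference below is one between tissues. Per the study's methods the dogs were perfused with phosphate buffered saline before their organs were taken, sciatic nerve RNA was at least partly pooled, and bone marrow and plasma RNA was isolated by other protocols than the solid tissues. The study also reports weaker agreement between samples of muscle, duodenum, testis and thymus. It gives low RNA integrity for plasma, bone marrow and some kidney samples. All tissues were taken from the same 5 dogs, so libraries of different tissues share animals. The labels tie no library to a dog, the tests treated all libraries as independent, and p-values measure the spread between these libraries only.

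A mature miRNA is a short RNA that guides the silencing complex to messenger RNAs and lowers their translation or stability. It is cut from one arm of a hairpin precursor, and usually one arm accumulates while the other is degraded. The hepatocyte, the main cell of the liver, is known for a very high level of miR-122, which acts on cholesterol and lipid metabolism and leaks into blood when the liver is injured. Other miRNAs known from liver, such as miR-192, miR-194 and miR-148a, are shared with gut, kidney or pancreas.

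Levels are given in reads per 1000000 miRNA reads (RPM), calculated from the deposited counts. The 5 liver libraries held 614717 to 2594852 miRNA reads, within the range of 157871 to 7896424 over all libraries, and 341 to 418 miRNAs had a read. In liver, 3 reads, the limit that a count of 0 allows, equal 1.16 to 4.88 RPM, which covers counting error only. Of the 650 miRNAs detected in the atlas, 472 had a read in any liver library, 295 had reads in all 5 and 178 had none in any of them. The liver libraries resembled each other in order of level, with Spearman correlations of 0.903 to 0.942 between pairs over the 650 miRNAs, but each pair differed by more than counting noise (chi-square over degrees of freedom 37.5 to 175).

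A few miRNAs made up most of the liver reads. The 10 miRNAs with the highest liver medians held 63.3% to 68.5% of the reads of each library, and 118 miRNAs had a liver median above 100 RPM. cfa-miR-192, an epithelial miRNA whose gene belongs to a p53-responsive group, came first with 176111, 221981, 188091, 176166 and 159657 RPM in liver replicates 1 to 5. cfa-miR-22, a broadly expressed miRNA known from heart muscle, followed with 122389, 123543, 122630, 124647 and 122028 RPM. It was the steadiest of these leading miRNAs. cfa-miR-148a, which represses the DNA methyltransferase DNMT1 and the LDL receptor, had 78400, 79159, 63213, 53594 and 68052 RPM.

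Some abundant liver miRNAs lay near the mean of the other tissues, above some tissues and below others. cfa-miR-143, a smooth muscle and fibroblast miRNA, had 72648, 53984, 63818, 47655 and 58471 RPM in liver against a median of 81646 RPM over the other 71 libraries, a log2 difference of 0.06 ± 0.36 (SE, adjusted p = 1.0). cfa-miR-181a, a miRNA known for setting T cell sensitivity, had a liver median of 35057 RPM and a difference of 0.08 ± 0.27, and cfa-miR-26a had 35045 RPM and 0.19 ± 0.25. cfa-miR-10a, whose gene lies beside HOXB4, had 30341 RPM and 0.24 ± 0.45. These 4 differences from the mean missed the threshold, and their signs turned with the scaling of the libraries. Against single tissues each was called in both directions, as for cfa-miR-10a, higher than in brain (7.20, adjusted p = 1.25e-11) and lower than in kidney (-2.18, adjusted p = 0.00783), and for cfa-miR-143, higher than in plasma (4.93) and lower than in duodenum (-2.73). cfa-miR-30a (1.26 ± 0.22, adjusted p = 3.67e-06), cfa-let-7f (1.35 ± 0.16, adjusted p = 5.98e-11) and cfa-miR-378, a miRNA hosted by a regulator of oxidative metabolism (1.92 ± 0.30, adjusted p = 2.75e-07), were higher in liver than in the mean of the other tissues. Against single tissues cfa-miR-30a was called in both directions, higher than in plasma (4.65) and lower than in kidney (-1.39, adjusted p = 0.00138). So was cfa-miR-378, higher than in lung (5.28) and lower than in skeletal muscle (-1.69, adjusted p = 0.00552). cfa-let-7f was higher than in every tissue but pancreas (0.06, adjusted p = 0.952).

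To ask which miRNAs set liver apart, liver was compared with the mean of the 15 other tissues, each tissue weighted equally, by edgeR's quasi-likelihood test with Benjamini-Hochberg adjustment. Of 480 miRNAs with enough reads to be tested, 112 were higher in liver (23.3%) and 60 were lower (12.5%) at an adjusted p under 0.05. The median log2 difference over all 480 was -0.36, and differences of single miRNAs are read against it. Among the 266 highly expressed miRNAs, those with a median above 100 RPM in at least 1 tissue, 78 were higher (29.3%) and 46 lower (17.3%). The split between directions moved with the scaling, to 60 higher and 96 lower with RLE size factors, 80 and 60 with library size only, and 58 and 164 with DESeq2.

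The test could not measure a fall where a tissue had no reads at all, since the mean of the log levels is then unbounded. Among 183 such miRNAs 20 were called higher and 0 lower. Among the 297 miRNAs with reads in every tissue, 92 were higher (31.0%) and 60 lower (20.2%), with a median of 0.15. A test by limma on log2(RPM + 1), added after the data were seen, called 89 higher (18.5%) and 115 lower (24.0%), and 88 higher and 55 lower calls were made by both tests.

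**Figure D1:**
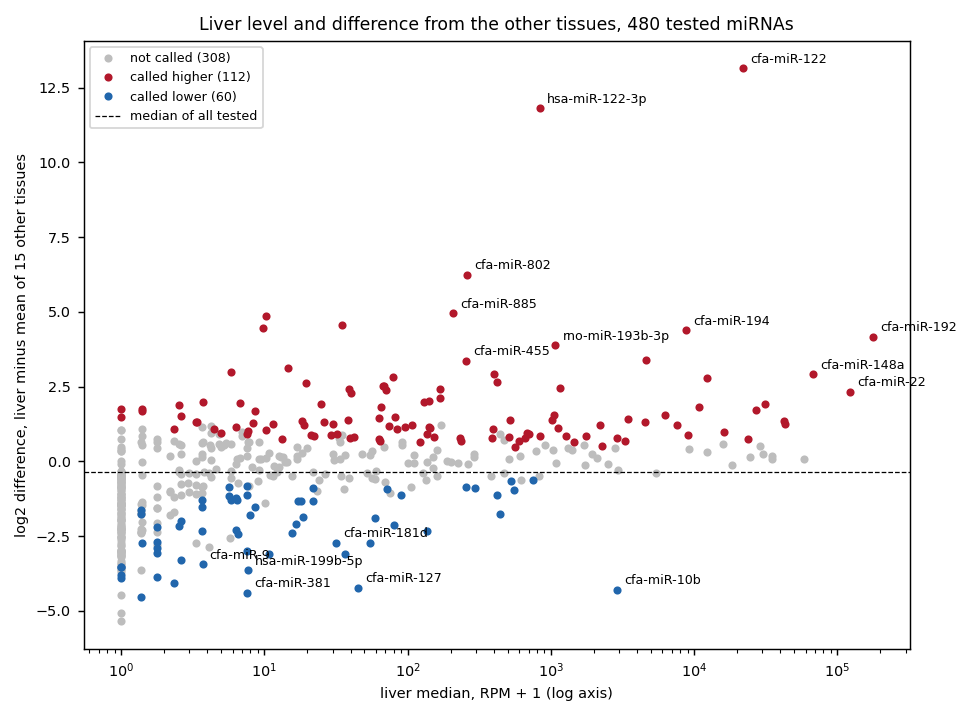
Each point is one of the 480 tested miRNAs, with its median level in liver (RPM + 1, log axis) against its log2 difference between liver and the mean of the 15 other tissues. Red points were called higher and blue points lower (adjusted p under 0.05), grey points neither, and the dashed line marks the median of -0.36. cfa-miR-122 stands at the top right, and the miRNAs called lower lie mostly at low liver levels.

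Next, liver was compared with each other tissue in turn. Only 8 of 480 miRNAs (1.67%) were called higher in liver than in every one of the 15 tissues: cfa-miR-122, hsa-miR-122-3p, cfa-miR-455, rno-miR-193b-3p, cfa-miR-365, cfa-miR-101, cfa-miR-26b and cfa-let-7g. The prefixes cfa, rno and hsa name the dog, rat or human miRBase entry used for the annotation. Of these 8, the 2 miR-122 arms and cfa-miR-455 passed under all 8 alternatives of scaling, filter, tissue set and test, and with each of the 76 libraries left out. For the other 5, the number of alternatives and of left-out libraries that kept the call is given below.

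cfa-miR-122, the hepatocyte miRNA, had 21287, 19138, 29157, 27079 and 22008 RPM in the 5 livers. Its level in the other 71 libraries ran from 0 over a median of 1.37 to 120 RPM, so that the groups lay far apart. The mean was 3177-fold higher in liver and the log2 difference was 13.14 ± 0.41 (SE, adjusted p = 1.32e-39). All 71 other libraries together held 435 reads of it, 20 of them had none, and 45 had at most 3. The nearest tissue was sciatic nerve (9.15 on the log2 scale), whose libraries had 13.7 and 104 RPM. The opposite arm, hsa-miR-122-3p, had 752 to 1032 RPM in liver and made up 3.65% ± 0.61 (SD, n = 5) of the reads of both arms, and 34 reads were found in all other libraries, 55 of which had none.

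rno-miR-193b-3p and cfa-miR-365 belong to a miRNA pair known from brown fat and muscle. MIR193B lies beside MIR365-1, and a second gene, MIR365-2, lies beside MIR193A, so the cfa-miR-365 reads could not be assigned to one of the 2 genes. rno-miR-193b-3p had 975, 1072, 890, 1523 and 1502 RPM in liver against 1.48, 100 and 534 RPM as the lowest, median and highest of the other libraries (log2 difference 3.88 ± 0.29, adjusted p = 2.96e-19). cfa-miR-365 had 414, 422, 356, 522 and 533 RPM against 7.28, 78.5 and 329 RPM (2.64 ± 0.25, adjusted p = 2.23e-14). Every liver library lay above every other library for both. The nearest tissues were skeletal muscle for rno-miR-193b-3p (1.41, adjusted p = 0.0359) and thymus for cfa-miR-365 (1.11). The call over all 15 tissues was kept by 5 of the 8 alternatives and without 63 of the 76 libraries, each left out in turn, for rno-miR-193b-3p, and by 2 and without 22 for cfa-miR-365.

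cfa-miR-455 lies beside the cartilage collagen gene COL27A1 and is known from cartilage. It had 309, 253, 281, 219 and 216 RPM in liver, all above the highest other library, a duodenum with 113 RPM (log2 difference 3.36 ± 0.21, adjusted p = 4.07e-23). The nearest tissue was jejunum, at a difference of 2.05. cfa-miR-101, a repressor of the histone methyltransferase EZH2, had 12301, 13930, 15163, 8390 and 11114 RPM, also above all others (341, 1930 and 6290 RPM as lowest, median and highest), with a difference of 2.80 ± 0.23 (adjusted p = 3.24e-17). Its call over all tissues was kept by 4 of the 8 alternatives and without 70 of the 76 libraries. There are 2 MIR101 genes in the dog, and their reads could not be told apart here.

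cfa-miR-26b and cfa-let-7g were high in liver by smaller steps, and their libraries overlapped with those of other tissues. cfa-miR-26b, whose gene lies beside the phosphatase gene CTDSP1, had 10567, 10303, 11623, 10896 and 11390 RPM. The other libraries had a median of 3528 RPM and reached 12704 RPM in bone marrow, and 2 of them lay above the lowest liver (log2 difference 1.80 ± 0.15, adjusted p = 3.6e-17). cfa-let-7g, of the let-7 family that opposes LIN28 and RAS, had 7544, 5815, 6868, 8717 and 9509 RPM against a median of 3824 and a maximum of 8424 RPM, with 7 other libraries above the lowest liver (1.22 ± 0.13, adjusted p = 6.72e-12). The call over all tissues was kept by 3 alternatives and without 27 libraries for cfa-miR-26b, and by 1 alternative and without 21 libraries for cfa-let-7g.

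**Figure D2:**
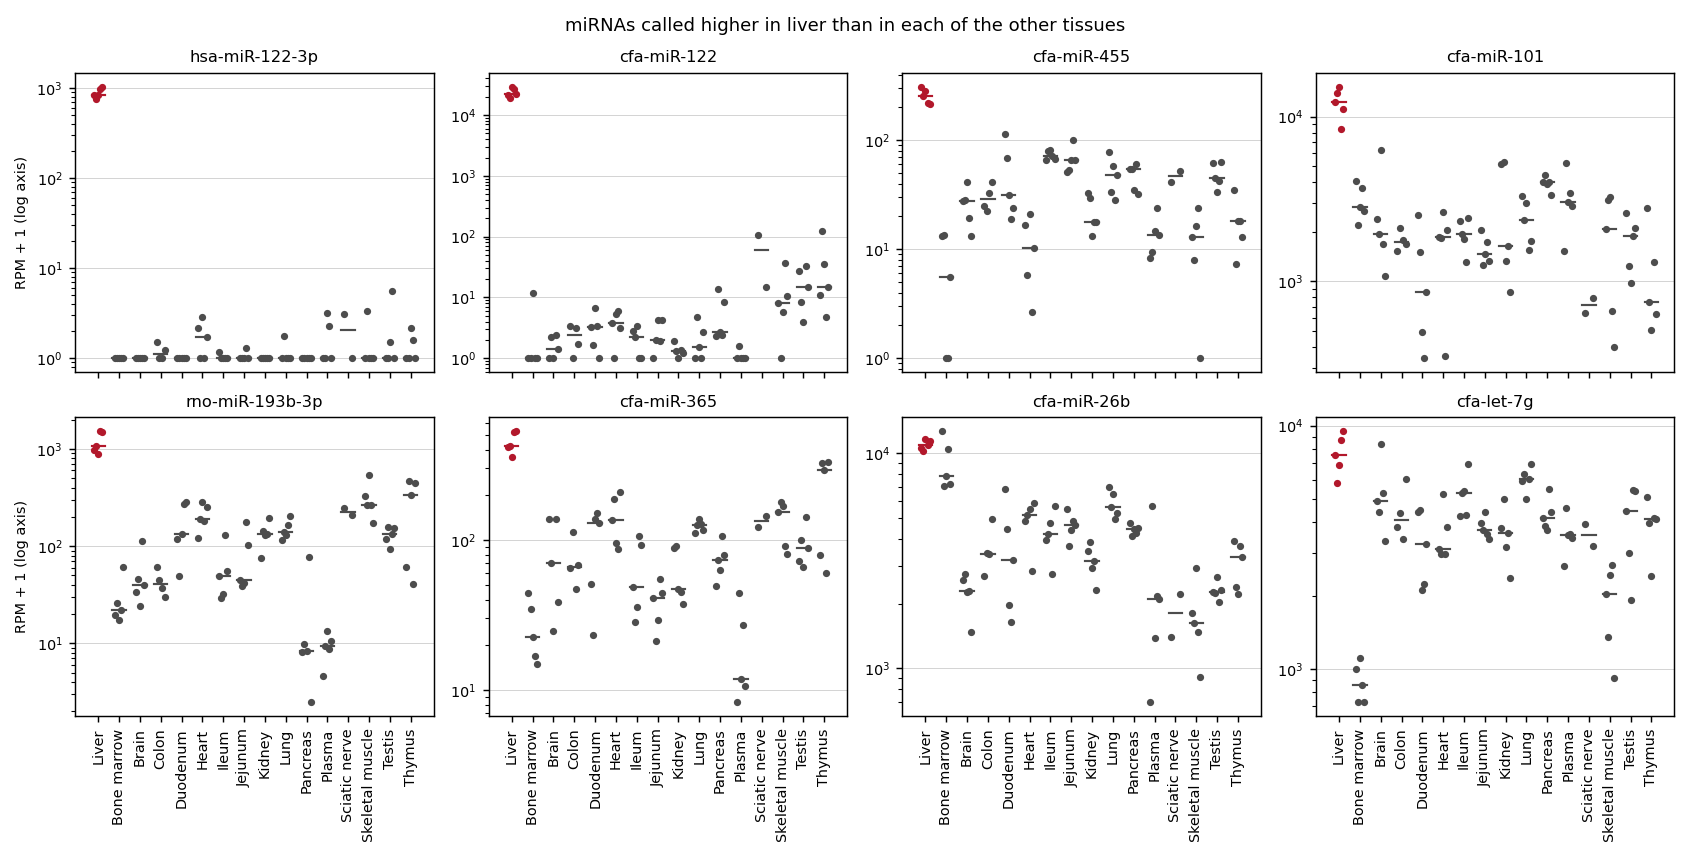
Levels of the 8 miRNAs called higher in liver than in every other tissue, in RPM + 1 on a log axis. Each dot is a library, red for liver and dark grey for the other tissues, and each line is a tissue median. For the 2 miR-122 arms the gap to the other tissues is largest, cfa-miR-365 comes nearest in thymus (up to 329 RPM), and bone marrow overlaps liver for cfa-miR-26b (up to 12704 RPM).

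The study's fold and rank-sum criteria of enrichment were applied next, here to the highly expressed miRNAs. A miRNA was called tissue enriched (TE) when its mean in liver was over 5 times the mean of all other libraries and an exact two-sided rank-sum test passed an adjusted p of 0.05. This held for 6 of 266 miRNAs (2.26%), namely cfa-miR-122, hsa-miR-122-3p, rno-miR-193b-3p (9.74-fold), cfa-miR-455 (7.61-fold), cfa-miR-101 (5.55-fold) and cfa-miR-365 (5.01-fold). For all 6, the 5 livers lay above the 71 other libraries, which gives the smallest p that 5 against 71 allow (1.08e-07 before adjustment). The 2 miR-122 arms alone had a liver median over 5 times the highest other library, here called highly tissue enriched (HTE), at 183 times for cfa-miR-122 and 184 times for hsa-miR-122-3p. Without the requirement of high expression 9 passed, the added ones being cfa-miR-483, hsa-miR-365a-5p and rno-miR-107-5p. cfa-miR-365 sat just above the fold threshold and was lost without liver replicate 4 or 5, with TMM-scaled or RLE-scaled RPM, with a pseudocount, with tissue means and without bone marrow and plasma. cfa-miR-101 was lost with RLE-scaled RPM, which left 4. Some of these settings also added miRNAs. cfa-miR-885, which the study treats as liver enriched, passed with TMM-scaled RPM, and cfa-miR-144 and hsa-miR-144-5p passed without bone marrow and plasma. With the fold taken from medians, 11 miRNAs passed, the added ones being cfa-miR-148a, its opposite arm hsa-miR-148a-5p, cfa-miR-22, cfa-miR-32 and cfa-miR-885.

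Several known liver miRNAs were high in liver but shared with one or a few other tissues. cfa-miR-192 had a log2 difference of 4.16 ± 0.26 (adjusted p = 1.92e-22) and was higher than in 11 tissues, but the jejunum median of 302243 RPM stood above the liver median (liver minus jejunum -0.68, adjusted p = 0.354), and colon (155908 RPM), ileum (154549 RPM) and duodenum (difference 0.38, adjusted p = 0.619) were not separated from liver either. cfa-miR-194, whose gene lies beside MIR215 in the dog annotation, had 9930, 8832, 7908, 8760 and 8912 RPM and was higher than in 11 tissues (4.39 ± 0.29, adjusted p = 1.02e-21), but lower than in jejunum (28457 RPM, difference -1.68, adjusted p = 0.0172), while colon (0.28), duodenum (-0.62) and ileum (-0.31) were not separated from liver.

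cfa-miR-148a was higher than in 14 tissues (2.91 ± 0.17, adjusted p = 3.72e-24) and lower than in pancreas, where its median was 406344 RPM (-2.58, adjusted p = 1.14e-09). cfa-miR-22 was higher than in 13 tissues (2.33 ± 0.19, adjusted p = 1.84e-17), while heart (difference 0.47, adjusted p = 0.234) and skeletal muscle (0.17, adjusted p = 0.721) were not separated from liver. cfa-miR-802, a miRNA known from liver, gut and pancreas, had 260, 304, 325, 239 and 228 RPM. It was below pancreas (2512 RPM, -3.33, adjusted p = 2.48e-04) and not separated from jejunum (507 RPM, -0.78, adjusted p = 0.457) or duodenum (0.23, adjusted p = 0.881). cfa-miR-885 had 207, 189, 179, 338 and 237 RPM and was higher than in 13 tissues (4.96 ± 0.31, adjusted p = 1.98e-22), with brain at 875 RPM (-0.65, adjusted p = 0.306) and jejunum at 143 RPM (0.72, adjusted p = 0.38) as the exceptions.

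**Figure D3:**
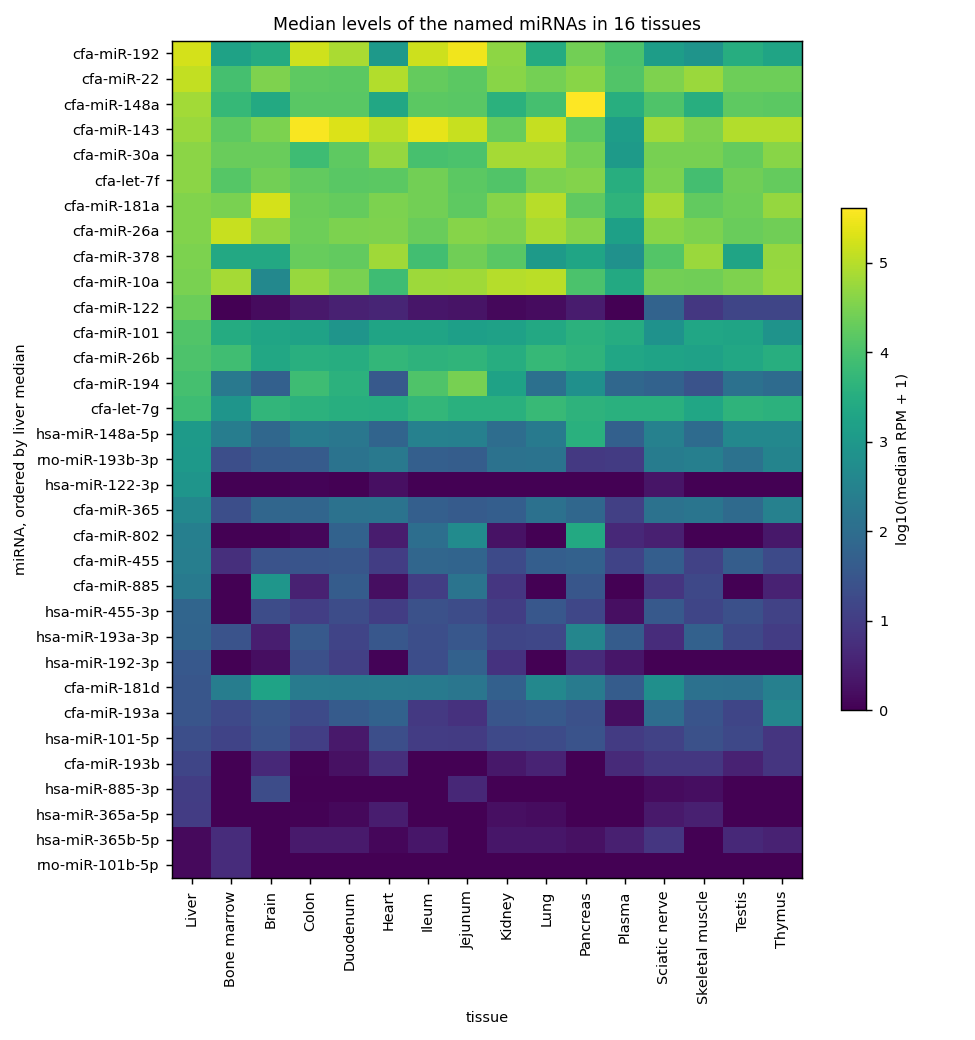
Median level of 33 miRNAs (the 10 most abundant in liver, those that set liver apart in one direction or the other, and the hepatocyte list) in each of the 16 tissues, as log10 of the median RPM + 1, with miRNAs ordered by their liver median. The columns beside liver show which tissues share a liver miRNA, such as jejunum, colon and ileum for cfa-miR-192 and pancreas for cfa-miR-148a and cfa-miR-802.

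The opposite arms of these hairpins were measured separately. In a list of 22 miRNAs known from hepatocytes, both arms included, 20 had enough reads and 19 were higher in liver, with a median difference of 3.62 against -0.36 over all tested miRNAs and a share of 23.3% called higher. All 6 TE miRNAs are members, and the list was chosen with earlier results of these data known. The count therefore gives no independent support. The summed level of the list had a median of 302146 RPM in liver, under those of pancreas (443339 RPM) and jejunum (346275 RPM), with overlapping ranges. hsa-miR-455-3p had 67.8, 48.9, 56.9, 73.4 and 67.2 RPM, each above the highest other library (48.8 RPM), a difference of 2.53 ± 0.24 (adjusted p = 1.41e-14). Sciatic nerve was not separated from liver (1.22, adjusted p = 0.0601), so hsa-miR-455-3p is not among the miRNAs called higher than every tissue. This arm made up 20% ± 4.15 (SD, n = 5) of the reads of the 2 miR-455 arms. The lesser arm took 1.65% ± 0.534 for miR-148a, 1.08% ± 0.173 for miR-193b, 3.92% ± 0.733 for miR-885, 0.177% ± 0.0415 for miR-101 and 0.0181% ± 0.00283 for miR-192.

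Of the lesser arms, hsa-miR-148a-5p (2.46), hsa-miR-192-3p (4.56), cfa-miR-193b, the 5p arm (3.12), hsa-miR-365a-5p (4.46), hsa-miR-885-3p (4.85) and hsa-miR-101-5p (0.83, adjusted p = 0.0183) were higher in liver, and hsa-miR-193a-3p rose by 1.45 (adjusted p = 6.01e-04). Against single tissues hsa-miR-193a-3p was called in both directions, higher than in brain (5.86) and lower than in pancreas (-2.66) and plasma (-1.29). hsa-miR-148a-5p, like cfa-miR-148a, was lower than in pancreas (-1.74). The differences of hsa-miR-192-3p, cfa-miR-193b, hsa-miR-365a-5p, hsa-miR-885-3p, cfa-miR-802 and hsa-miR-122-3p depend on tissues without any read. Only cfa-miR-193a among the tested members missed the threshold (29.1, 18.1, 24.4, 46.7 and 39.4 RPM, difference 0.24, adjusted p = 0.985). hsa-miR-365b-5p and rno-miR-101b-5p were not tested, with at most 1.63 RPM in any liver.

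Turning to miRNAs that were low in liver, 1 of 480 (0.208%) was called lower than in every other tissue. This was cfa-miR-181d, one of a family of miRNAs known from lymphocytes and brain, with 31.1, 27.0, 26.0, 30.7 and 40.2 RPM in liver against 7.28, 205 and 4958 RPM as the lowest, median and highest of the others. Only 4 other libraries lay under the highest liver. The log2 difference was -2.72 ± 0.41 (adjusted p = 1.02e-07), the nearest tissue was kidney (-1.26, adjusted p = 0.0248), and the call over all tissues was kept by 5 of 8 alternatives and without 35 of 76 libraries.

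The miR-181 members did not move together. cfa-miR-181c, whose gene lies beside that of miR-181d, had 443, 407, 501, 362 and 646 RPM (-1.76 ± 0.33, adjusted p = 1.32e-05), and its opposite arm hsa-miR-181c-3p had 17.5, 16.6, 16.3, 22.7 and 20.1 RPM (-1.86 ± 0.30) and was lower than in 14 tissues. cfa-miR-181b, made from 2 other gene pairs together with miR-181a, had a difference of -0.12 ± 0.27 (adjusted p = 1.0), close to that of miR-181a. Related miRNAs differ by few bases, and how reads were shared between them was not tested.

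A like split was found in 2 other families. cfa-miR-10b, whose gene lies beside HOXD3, had 2911, 2059, 2697, 5597 and 4466 RPM in liver against a median of 69721 RPM (-4.29 ± 0.57, adjusted p = 1.96e-09), lower than in 14 tissues and higher than in brain (1.96, adjusted p = 0.0203), while miR-10a beside HOXB4 did not pass. hsa-miR-199b-5p had 3.59, 12.3, 13, 6.68 and 6.18 RPM in liver against a median of 112 RPM (-3.64 ± 0.44, adjusted p = 1.36e-10), and only brain was not separated from liver (0.05, adjusted p = 0.951). Its relative hsa-miR-199a-5p was higher in liver, at 396, 388, 397, 311 and 469 RPM against 252 RPM (1.08 ± 0.26, adjusted p = 6.54e-04), as was cfa-miR-199, the 3p arm that both genes share (1.30 ± 0.24, adjusted p = 1.03e-05).

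**Figure D4:**
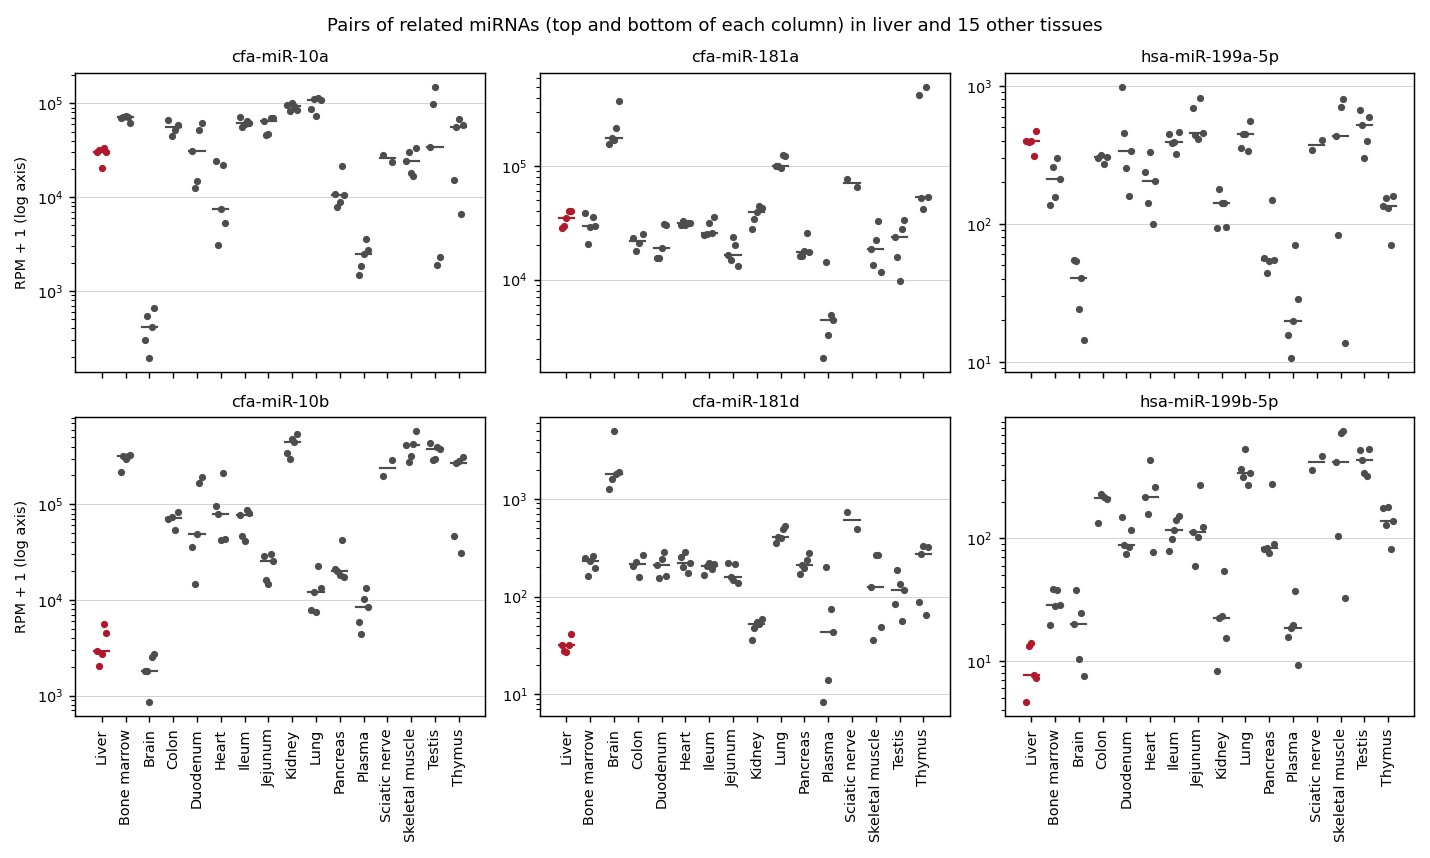
Levels of cfa-miR-10a, cfa-miR-181a and hsa-miR-199a-5p (top) and of their relatives cfa-miR-10b, cfa-miR-181d and hsa-miR-199b-5p (bottom) in RPM + 1 on a log axis. Dots are libraries, red for liver, and lines are tissue medians. The bottom miRNAs are low in liver (26.0 to 40.2 RPM for cfa-miR-181d), while the top ones lie within the range of the other tissues.

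Other miRNAs low in liver came from the imprinted DLK1-DIO3 region, a large miRNA cluster active in brain and during development. cfa-miR-381 had 17.9, 4.24, 6.51, 5.34 and 9.27 RPM against a median of 167 RPM (-4.40 ± 0.69, adjusted p = 2.39e-07), and cfa-miR-127 had 81.7, 21.6, 43.9, 62.8 and 41.0 RPM against 547 RPM (-4.23 ± 0.77, adjusted p = 5.61e-06). Of the 63 members, 49 were tested. Of these, 8 were called lower, a share near the 12.5% over all tested miRNAs. These 8 were also the members with reads in every tissue, where 20.2% of all miRNAs were called lower. One more member was called higher, from a tissue without reads, and limma called 32 of 49 lower, against 24.0% over all tested miRNAs. The summed level of the cluster was 62.0 to 180 RPM in the 5 livers, against a median of 76404 RPM in brain and 61.6 RPM in bone marrow, and 56 of 63 members had at most 3 reads in every liver.

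Lists of miRNAs known from other cell types were then examined in the same contrast, to be read against 23.3% called higher, 12.5% lower and a median of -0.36. In these bulk samples, fewer cells of a type and less RNA per cell cannot be told apart. Of 4 erythroid miRNAs, 3 were higher in liver (median 1.99), and none with all other libraries taken as one group. cfa-miR-144, a red cell miRNA, had 665, 399, 659, 119 and 312 RPM (2.93 ± 0.34, adjusted p = 2.29e-11), cfa-miR-451, its neighbour in the genome, had a difference of 1.56 ± 0.35 (adjusted p = 1.93e-04), and cfa-miR-486 missed the threshold (0.51, adjusted p = 0.482). The summed level of all 4, cfa-miR-486 included, was 24268 to 46203 RPM in liver. Its median of 33569 RPM lay under those of plasma (682136 RPM), heart (121079 RPM), bone marrow (101921 RPM), skeletal muscle, sciatic nerve, lung and thymus. This order holds for the sum and not for each member, as cfa-miR-144 reached at most 665 RPM of it in liver. What blood left in the perfused livers contributed was not tested.

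Of 8 tested miRNAs of myeloid cells and leukocytes, 3 were higher and 1 lower (median 0.80), which became 1 and 1 with RLE size factors and 1 and 2 with DESeq2. These were cfa-miR-223, a granulocyte and monocyte miRNA, at 39.5, 75.9, 65.1, 22.7 and 36.3 RPM (2.29 ± 0.33), cfa-miR-142, found across blood cell types (1.40 ± 0.38), hsa-miR-223-5p, and, lower, the lymphocyte activation miRNA cfa-miR-155 (-1.12 ± 0.40). For hsa-miR-223-5p, at 0.771 to 1.63 RPM in liver, limma gave no call. The 2 endothelial miRNAs did not pass (median 0.56). Of 9 miRNAs of stellate cells, fibroblasts and smooth muscle, 4 were higher and 1 lower (median 0.58), namely the miR-199a and miR-214 arms against hsa-miR-199b-5p. The 4 became 2 with RLE size factors, and the median turned to -0.02 with DESeq2.

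Markers of other organs were at low summed levels in liver, apart from the pancreatic list, but few of their members were called lower. The miR-200 family of epithelial cells, which in liver marks bile ducts, summed to 162 to 376 RPM, with 0 of 9 members higher and 2 lower (limma 0 and 5). Striated muscle miRNAs summed to 36.6 to 159 RPM (0 of 10 higher, 2 lower), neural ones to 239 to 338 RPM (1 of 14 higher, 3 lower), like those of colon, lung and kidney, and germ cell ones to 5.41 to 22.7 RPM (0 of 8 higher, 1 lower). Libraries of the home organs varied widely, from 735 to 116605 RPM of striated muscle miRNAs in skeletal muscle and 701 to 109652 RPM of germ cell miRNAs in testis. Comparisons of liver with these 2 tissues rest on such mixed groups. The neural call, cfa-miR-219-3p, was absent in limma (0.06, adjusted p = 0.847). Of 6 pancreatic miRNAs 2 were called higher, of which cfa-miR-217 had a liver median of 0.399 RPM and no limma call, and the other was cfa-miR-375, the islet miRNA, at 4091, 4467, 5093, 6334 and 4579 RPM in liver (3.40 ± 0.38, adjusted p = 1.43e-11) but 148274 RPM in pancreas. The summed level of the pancreatic list had a median of 4594 RPM in liver. It lay under those of pancreas (160911 RPM), colon (5717 RPM) and duodenum (5290 RPM), and the ranges of colon and duodenum overlapped with that of liver.

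Among conserved families, all 11 miR-30 members were called higher in liver (median 0.92), from 0.67 for hsa-miR-30c-1-3p to 1.26 for cfa-miR-30a. The count fell to 5 without liver replicate 1, 6 without liver replicate 2, 4 with RLE size factors or DESeq2 and 7 with library size only, but all 11 stayed above the median of all miRNAs under each scaling. Of 14 tested let-7 members 7 were higher and 0 lower (median 0.59), which became 4 and 2 with RLE size factors. The miR-17-92 clusters, known for driving proliferation, had 0 of 20 higher and 4 lower (median -0.06), and the miR-29 family, known for repressing collagens, had 2 of 6 higher and 1 lower (median -0.19). Of 7 tested HOX cluster miRNAs 1 was higher and 3 lower (median -3.31). The call higher was absent with RLE size factors, library size only, DESeq2 and limma, and 4 of the 8 members had at most 3 reads in every liver.

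**Figure D5:**
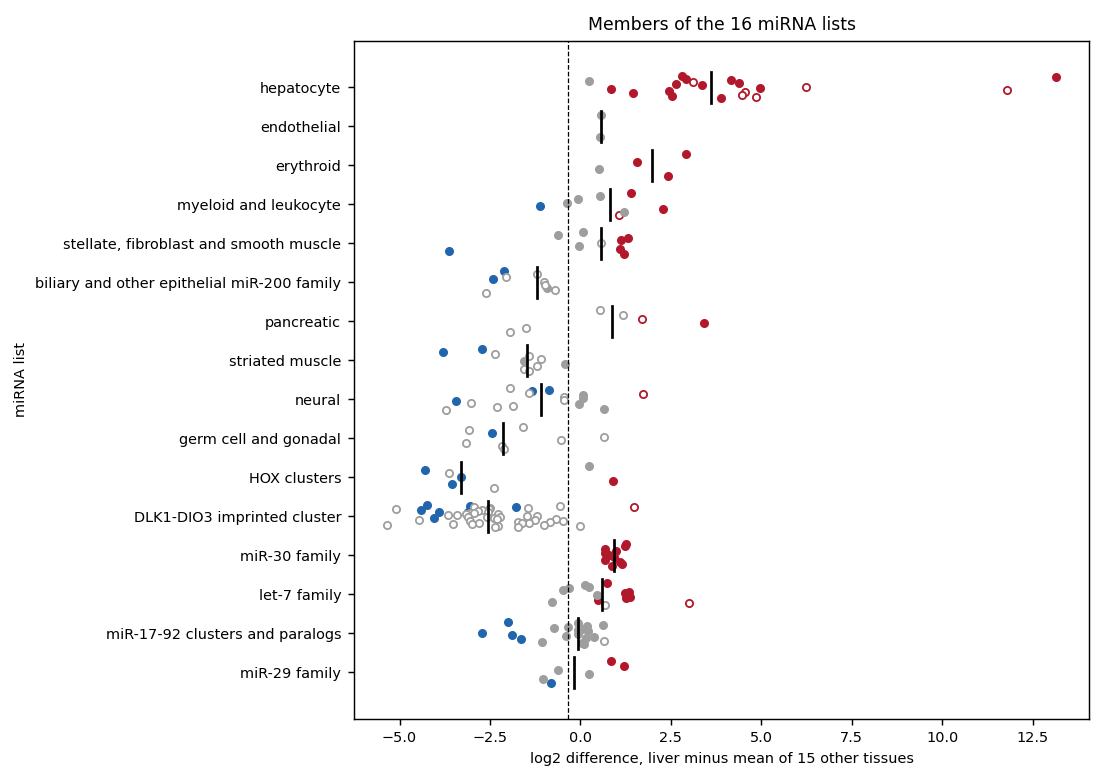
Log2 difference between liver and the mean of the other tissues for each tested member of 16 miRNA lists. Filled dots are miRNAs with reads in every tissue and open dots those without reads in at least 1, red and blue mark calls higher and lower, the bar is the list median and the dashed line the median of all 480 tested miRNAs (-0.36). The hepatocyte list stands highest (median 3.62) and the HOX cluster list lowest (median -3.31).

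Over whole profiles, liver was closest to jejunum, kidney, lung and ileum. The mean Spearman correlation over 650 miRNAs was 0.872 with jejunum, 0.865 with kidney, 0.864 with lung and 0.862 with ileum, against 0.924 between livers, and the lowest values were 0.731 with testis and 0.672 with brain. Each mean is over library pairs that share the miRNA set and differ in depth, and it is given as a description. In the direct comparisons, liver was higher than pancreas for 91 miRNAs (19.0%) and lower for 82 (17.1%), and higher than kidney for 68 (14.2%) and lower for 84 (17.5%).

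Because liver miRNAs are of interest as blood markers, the 8 miRNAs above were also read in plasma of these untreated dogs. In plasma, 135 of 480 miRNAs were higher (28.1%) and 123 lower (25.6%) than in the mean of the 14 tissues other than liver. Erythroid miRNAs took 545235 to 816358 RPM of each plasma library, which leaves less for all others, so these differences depend on the scaling. cfa-miR-122 had 1 read in the 5 plasma libraries together, and hsa-miR-122-3p had 5. Plasma was compared with the mean of the 14 tissues only, not with each of them. cfa-miR-101 had 1525, 5233, 3011, 3437 and 2858 RPM in plasma and was higher there than in that mean (1.49 ± 0.26, adjusted p = 1.1e-06). cfa-let-7g, at 2642 to 4577 RPM, was also higher (0.78 ± 0.14, adjusted p = 2.38e-06), though not with library size only (0.01, adjusted p = 1.0). cfa-miR-365 (-1.52 ± 0.39, adjusted p = 6.34e-04) and rno-miR-193b-3p (-2.76 ± 0.55, adjusted p = 1.42e-05) were lower. cfa-miR-455 and cfa-miR-26b did not pass. Plasma and the 14 tissues are the 15 tissues of the liver comparisons, which picked the 8 miRNAs as higher in liver than in each. The plasma and liver comparisons therefore share libraries.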

How the data were processed

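The authors prepared small RNA libraries with the TruSeq kit, aligned reads to the dog genome (CanFam 3.1 in the submitters' processing notes) with OSA without mismatches, leaving out reads with over 10 locations, and counted reads that overlapped at least 70% of a miRNA locus. Dog, rat and human miRBase names were joined. The deposited values are counts per library and miRNA. The deposited RPM were not used, and RPM was recalculated from the counts and their totals. 1 sample name in the table matched no label and 1 of 77 labelled samples had no values, which left 76. miRNA sequences are not given here. Gene neighbours came from RefSeq, whose build differs from that of the reads, so no coordinates are given.

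miRNAs passing edgeR's filterByExpr were fitted over all 16 tissues with TMM scaling (edgeR 4.0.16, glmQLFit and glmQLFTest, R 4.3.3). The SE of an edgeR difference was not taken from the fit. It is the absolute log2 difference divided by the square root of the quasi-likelihood F, and is approximate. DESeq2 1.42.0, limma 3.58.1 and other scalings and filters were alternatives. limma and the restriction to miRNAs with reads in every tissue were added after seeing the data. The exact rank-sum p was computed from the full distribution of midrank sums, with ranks and Benjamini-Hochberg adjustment from scipy 1.17.1. The fit was also run on simulated counts in which each miRNA had the same mean in all tissues and only liver was changed for some. Such counts cannot show how the fit acts where the other tissues differ from each other or lack reads. The miRNAs named are the TE miRNAs, those higher or lower than every tissue, the 10 most abundant, the hepatocyte list and extreme list members. miR-10b, the miR-181, miR-199 and DLK1-DIO3 members, miR-375, other list members and the plasma values were named after their values were seen. The comparison and all lists were chosen with earlier results of these data known.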

Additional observations from a re-analysis of the deposited data

Results flagged for a closer look

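For the levels of 62 groups of 4 or 5 libraries, the library farthest from the others was compared with Dixon's 95% critical value, and 10 were set apart. Chance does so in about 1 of 20 groups, and many zeros make it more frequent. In liver, replicate 3 had 20481 RPM of cfa-miR-10a against 30075 to 33836 RPM in the other livers. cfa-miR-122 stood out at 120 RPM in thymus replicate 2, 36.3 RPM in skeletal muscle replicate 4, 10.8 RPM in bone marrow replicate 3 and 0.566 RPM in plasma replicate 2. hsa-miR-122-3p stood out at 4.55 RPM in testis replicate 4, 2.34 RPM in skeletal muscle replicate 2, 0.745 RPM in lung replicate 2, 0.301 RPM in jejunum replicate 4 and 0.163 RPM in ileum replicate 1. What set these libraries apart was not tested.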

How the results depend on the processing

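In the comparison with the mean of the other tissues, in place of 112 higher and 60 lower miRNAs, RLE size factors gave 60 and 96, DESeq2 58 and 164, a mean of at least 10 RPM 52 and 84, all other libraries taken as one group 14 and 28, leaving out bone marrow and plasma 88 and 110, and limma 89 and 115. Leaving out each of the 76 libraries gave 70 to 114 higher and 49 to 69 lower, with 70 without sciatic nerve replicate 2 and 71 without replicate 1. Higher than every tissue were 3 with RLE, 5 with library size only, 3 with DESeq2, 5 without a filter, 3 with a mean of at least 10 RPM and 3 to 8 without single libraries (3 without sciatic nerve replicate 1 or 2, colon replicate 3, kidney replicate 5 or plasma replicate 3 or 5). Lower than every tissue were 3 with RLE, DESeq2, the 10 RPM filter or without bone marrow and plasma, 0 with library size only, no filter or limma, and 0 to 1 without single libraries. TE miRNAs were 11 by the fold of medians and 5 to 6 without single livers, HTE miRNAs 2. Plasma against the mean of the 14 tissues gave 187 lower by limma, and 117 to 137 higher and 117 to 124 lower without single plasma libraries. The Spearman correlation was 0.809 with jejunum after thinning, and with brain 0.625 after thinning and 0.526 over highly expressed miRNAs.

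Of the lists, hepatocyte miRNAs gave 9 higher with one group and 18 to 19 without single livers, and erythroid ones 0 and 3. The miR-30 family gave 4 with RLE, DESeq2 or the 10 RPM filter, 7 with library size only, 5 without bone marrow and plasma, 0 with one group and 5 to 10 without single livers. let-7 gave 4 with RLE, DESeq2 or without bone marrow and plasma, 3 with the 10 RPM filter, 2 with one group and 5 to 7 without single livers. DLK1-DIO3 miRNAs gave 31 lower with DESeq2, 25 without bone marrow and plasma, 13 with one group, 32 with limma and 7 to 8 without single livers, and stellate cell miRNAs 2 higher with RLE, 0 with one group and 4 without single livers. Over the named miRNAs 231 of the other values kept direction and call, 15 lost the call and 30 turned sign.

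The sign of 5 miRNAs without a call turned, given in the order RLE, DESeq2, 10 RPM filter, without bone marrow and plasma, and one group. cfa-miR-143 gave -0.43, -0.43, -0.38, -0.65 and -0.93 (also -0.0041 with library size only, -0.02 without sciatic nerve, and -0.12 to 0.15 without single livers). cfa-miR-181a gave -0.40, -0.40, -0.38, -0.31 and -0.54 (-0.02 with library size only, and -0.02 to 0.09 without single livers). cfa-miR-26a gave -0.26, -0.26, -0.25, -0.08 and -0.19, cfa-miR-10a -0.25, -0.25, -0.21, -0.04 and -0.64, and cfa-miR-193a -0.23, -0.23, -0.21, -0.22 and -0.70. With one group, the called cfa-miR-802 gave -0.02 and the called hsa-miR-193a-3p -0.06, neither then past the threshold. cfa-miR-26b in plasma gave -0.01 with RLE, -0.0018 with DESeq2 and -0.55 with library size only. The cause was not tested. No paired analysis was possible because the labels tie no library to a dog. Depth limits the low miRNAs.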

Other observations

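Below the level required for TE, cfa-miR-483, an arm of a hairpin within the IGF2 gene, was named after its values were seen. It had 5.58, 3.85, 4.88, 5.34 and 6.18 RPM in liver, each above the highest other library (2.83 RPM), and a mean 30.9-fold higher. A count of 3 reads equals 1.2, 1.16, 4.88, 4.01 and 2.32 RPM in liver replicates 1 to 5. Replicates 3 and 4 are thus near that level, and the fold rests on few reads.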
